A study of Homo sapiens with 22 samples.

Results

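The TRiC complex, also called CCT, is the chaperonin of the eukaryotic cytosol. It is built of stacked rings, each assembled from 8 related subunits, and it encloses newly made proteins so that they can fold at the cost of ATP. Actin and tubulin are its best known clients, and a working complex needs every subunit. The mRNAs of the 8 subunit genes were followed here: TCP1 (subunit alpha, first described in the t complex of the mouse), CCT2 (beta), CCT3 (gamma), CCT4 (delta), CCT5 (epsilon), CCT6A (zeta), CCT7 (eta) and CCT8 (theta). The members were chosen by gene symbol and not by a cutoff on any measured value, though earlier results of these data were known. For each gene the protein-coding transcript with the highest mean count over 0-10 h of chase was used, which gave 8 transcripts, 1 per gene, out of 64899 genes with a row in the files. All 8 were among the 79513 of 227264 transcripts whose mean level reached 1 CPM (counts scaled to library size).

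The libraries came from BRIC-Seq, in which RNA labelled with bromouridine (BrU) is pulled down with an antibody when labelling stops (0 h) and again after a chase without BrU. HEK293T, a human embryonic kidney cell line, expressed either a control hairpin (shControl) or a hairpin against ZNF598 (shZNF598), the ubiquitin ligase that marks collided ribosomes. Cells of all groups had received 150 μM BrU for 24 h before the chase. There were 2 libraries per hairpin at 0, 2, 4, 6 and 10 h and 1 library per hairpin at 24 h, 22 in 12 groups. The promoter that drives the hairpins is not given in the sources used here, and nothing states that replicates were separate cultures, so the p-values below measure the spread between these libraries, which may be technical.

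Total counts were 52352359 to 96963584 per library over 0-10 h, and 21220829 (shControl) and 40157613 (shZNF598) at 24 h. Replicates differed by more than sampling noise in each of the 10 groups with 2 libraries (chi-square per degree of freedom 2.31 to 18.8), with the highest value in shControl at 0 h. Of 6 markers of the HEK293T lineage 5 passed the minimum level (VIM 98.8 to 226 CPM) and PAX2 did not. Of 9 markers of other cells only COL1A1 (0.575 to 1.8 CPM) and LRP2 (1.95 to 7.56 CPM) passed, and CD3E and UMOD were at 0 in all 20 libraries of 0-10 h. The targeted transcript, ZNF598, had 7.039 and 8.549 CPM in the shControl and 0.7717 and 1.072 CPM in the shZNF598 libraries of 0 h. Averaged over 0-10 h its log2 change in shZNF598 cells was -3.05 (SE 0.087, adjusted p = 1.17e-18 in edgeR's quasi-likelihood test). The library of 24 h held 86 counts of it (4.9 CPM) with shControl and 84 counts (2.41 CPM) with shZNF598.

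The subunit genes lie on 7 chromosomes (GRCh38, transcript coordinates of GENCODE release 44). CCT3 (ENST00000295688.8, chromosome 1, 156308968 to 156338292), CCT4 (ENST00000394440.8, chromosome 2, 61868085 to 61888656), TCP1 (ENST00000321394.12, chromosome 6, 159778498 to 159789602) and CCT8 (ENST00000286788.9, chromosome 21, 29056326 to 29073648) are on the minus strand. CCT7 (ENST00000258091.10, chromosome 2, 73234308 to 73253005), CCT5 (ENST00000280326.9, chromosome 5, 10250280 to 10266389), CCT6A (ENST00000275603.9, chromosome 7, 56051765 to 56063989) and CCT2 (ENST00000299300.11, chromosome 12, 69585459 to 69601570) are on the plus strand. The transcripts have 11 to 16 exons, and their coding sequences are close in length, from 1593 nt in CCT6A to 1668 nt in TCP1. The 3′UTRs are not: CCT7 has 144 nt, CCT8 149 nt, CCT3 231 nt, CCT2 245 nt, TCP1 547 nt, CCT4 607 nt, CCT6A 904 nt and CCT5 1606 nt. Over 10731 protein-coding genes treated alike, the median 3′UTR was 1440 nt. All of these are annotated lengths. Another protein-coding row of CCT5 ends at 10265078, before the end of the row used, and had a mean count of 12811.55, beside 13005.8. A read is counted for every isoform it overlaps, and the longer row had few more counts than the shorter one. The counts thus give little sign of the 3′UTR beyond 10265078, and 1606 nt may overstate the 3′UTR of CCT5 in these cells. The share of CCT5 mRNA with each end was not measured.

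The letters ATTTA, the core of the AU-rich elements that can mark mRNAs for fast decay, occur in the 3′UTR of 7 of the 8 subunits (74.5% of the 10731 genes hold it, sense strand, overlapping matches counted). CCT8 has none, CCT3 and CCT7 have 1, CCT4 and CCT6A 2, TCP1 and CCT2 3, and CCT5 4. All but the first match of CCT5 lie beyond position 10265078, where a shorter protein-coding row of CCT5 ends. Shown are the matches of CCT7, whose labelled mRNA rose most after CCT8 relative to the bulk, and of CCT2, whose mRNA did not, both with a short 3′UTR, followed by the first of CCT5, which lies in the only nonamer of the group. Each window has the 11 bases on either side of the match from the genome, and capitals mark ATTTA.
CCT7, chr2:73252971-73252997, plus strand: tactggaggctATTTAaataaaatgta
CCT2, chr12:69601436-69601462, plus strand: taagtttggatATTTAgctgaccttcg
CCT2, chr12:69601468-69601494, plus strand: acataggtctaATTTAtttgccgtgtc
CCT2, chr12:69601505-69601531, plus strand: caaatcagttgATTTAaaaaagttcat
CCT5, chr5:10264849-10264875, plus strand: catctacagttATTTAttgttacatcc
The longer form TTATTTATT is in CCT5 alone (9.79% of genes hold it), and TGTANATA, the letters that Pumilio proteins recognise, is in the 3′UTR of none (31.5% of genes). A match is only a run of letters, and binding was not measured.

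Levels are CPM scaled by TMM (the trimmed mean of M-values), which sets a trimmed mean of the log ratios between libraries, called the bulk here, to 0. Single transcripts still differ between libraries, and 74.4% of them had a called slope in shControl and 71.2% in shZNF598 cells. A transcript whose labelled copies are lost as fast as the bulk has a slope of 0, a positive slope means that it was lost more slowly than the bulk, and a rise in CPM during the chase is a rise in share and not in the number of molecules. A loss of cells and a loss of RNA per cell cannot be told apart in such bulk libraries. With 2 libraries per group, each difference below is an edgeR quasi-likelihood estimate whose spread was shared over all 20 libraries of 0-10 h, and adjusted p-values are Benjamini-Hochberg values over all 79513 transcripts.

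In shControl cells the labelled mRNAs of 5 subunits, CCT8, CCT7, TCP1, CCT4 and CCT5, rose relative to the bulk over 0-10 h, and those of CCT3, CCT6A and CCT2 had slopes near 0. The slopes of the 5 were 0.176 (SE 0.01), 0.151 (SE 0.011), 0.099 (SE 0.009), 0.081 (SE 0.017) and 0.071 (SE 0.01) log2 per hour, with adjusted p from 5.26e-12 for CCT8 to 0.00017 for CCT4. Of all transcripts tested, 33.5% had a called positive and 40.8% a called negative slope. The median slope of the 8 was 0.076 log2 per hour, beside -0.018 for all transcripts. The 3 others had 0.015 (95% interval -0.016 to 0.047) for CCT3, 0.007 (-0.028 to 0.042) for CCT6A and 0.003 (-0.033 to 0.038) for CCT2. Among the 10731 protein-coding genes, CCT8 stood at the 95.5th percentile of slopes in shControl cells, CCT7 at the 93rd and CCT2, the lowest of the 8, at the 66.7th.

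CCT8, the theta subunit, had the steepest slope. Its level in the 2 shControl libraries was 76.73 and 75.47 CPM at 0 h, 99.46 and 101.6 CPM at 2 h, 118.7 and 131.2 CPM at 4 h, 168.4 and 170.5 CPM at 6 h, and 237.3 and 275.3 CPM at 10 h. Every library was above all libraries of the earlier times, and the mean at 10 h was 3.36-fold that at 0 h. In the shZNF598 libraries CCT8 had 84.64 and 85.01 CPM at 0 h, 104.4 and 109.6 CPM at 2 h, 119.7 and 129 CPM at 4 h, 167.7 and 142.1 CPM at 6 h, and 216.9 and 190 CPM at 10 h. The order of the times was the same, and the mean at 10 h was 2.39-fold that at 0 h. 

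CCT7, the eta subunit, rose in both arms up to 10 h. In shControl cells it had 127.1 and 162.7 CPM at 0 h, 237.9 and 248.5 CPM at 6 h, and 381.8 and 406.2 CPM at 10 h. In shZNF598 cells it had 164.6 and 160.9 CPM at 0 h, 223.8 and 259.5 CPM at 6 h, and 328.7 and 362.9 CPM at 10 h. The mean at 10 h was thus 2.72-fold that at 0 h in shControl and 2.12-fold in shZNF598 cells, and the 10 h libraries overlapped with no earlier library in either arm. TCP1, the alpha subunit, had 99.12 and 103.8 CPM at 0 h and 185.9 and 208.9 CPM at 10 h in shControl cells, and 107.7 and 116.1 CPM at 0 h and 180 and 167.3 CPM at 10 h in shZNF598 cells. These were rises of 1.95-fold and 1.55-fold, without overlap between the times.

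CCT4, the delta subunit, and CCT5, the epsilon subunit altered in a hereditary sensory neuropathy, rose less. CCT4 had 150 and 152.3 CPM at 0 h, 254.6 and 278.1 CPM at 6 h, and 232.2 and 265.8 CPM at 10 h in shControl cells. In shZNF598 cells it had 167.6 and 181.5 CPM at 0 h, 264.4 and 248.9 CPM at 6 h, and 228.5 and 190.6 CPM at 10 h, so that its highest mean was at 6 h in both arms. CCT5 had 147.5 and 164.2 CPM at 0 h and 227.8 and 258.7 CPM at 10 h in shControl cells, and 169.9 and 158.5 CPM at 0 h and 195.6 and 207.1 CPM at 10 h in shZNF598 cells. Its rise was 1.56-fold and 1.23-fold, and the 0 h and 10 h libraries did not overlap.

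The 3 remaining subunits had mean levels at 10 h near or below those of 0 h. CCT2, the beta subunit altered in a form of Leber congenital amaurosis, had 129.5 and 156.7 CPM at 0 h, 180.2 and 194.6 CPM at 6 h, and 128.2 and 156.6 CPM at 10 h in shControl cells. The libraries of 0 and 10 h covered the same range, below those of 6 h. CCT6A, the zeta subunit, went from 73.96 and 71.69 CPM at 0 h through 94.98 and 97.24 CPM at 6 h to 68.58 and 80.74 CPM at 10 h in the same cells. CCT3, the gamma subunit, had 188.6 and 238.4 CPM at 0 h, 260 and 285.3 CPM at 6 h, and 222.4 and 238.7 CPM at 10 h. In shZNF598 cells the mean levels at 0, 6 and 10 h were 165, 183 and 139 CPM for CCT2, 82.5, 95.2 and 68.9 CPM for CCT6A, and 238, 279 and 239 CPM for CCT3. For CCT2 and CCT6A both shZNF598 libraries of 10 h lay below both of 0 h.

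**Figure D1:**
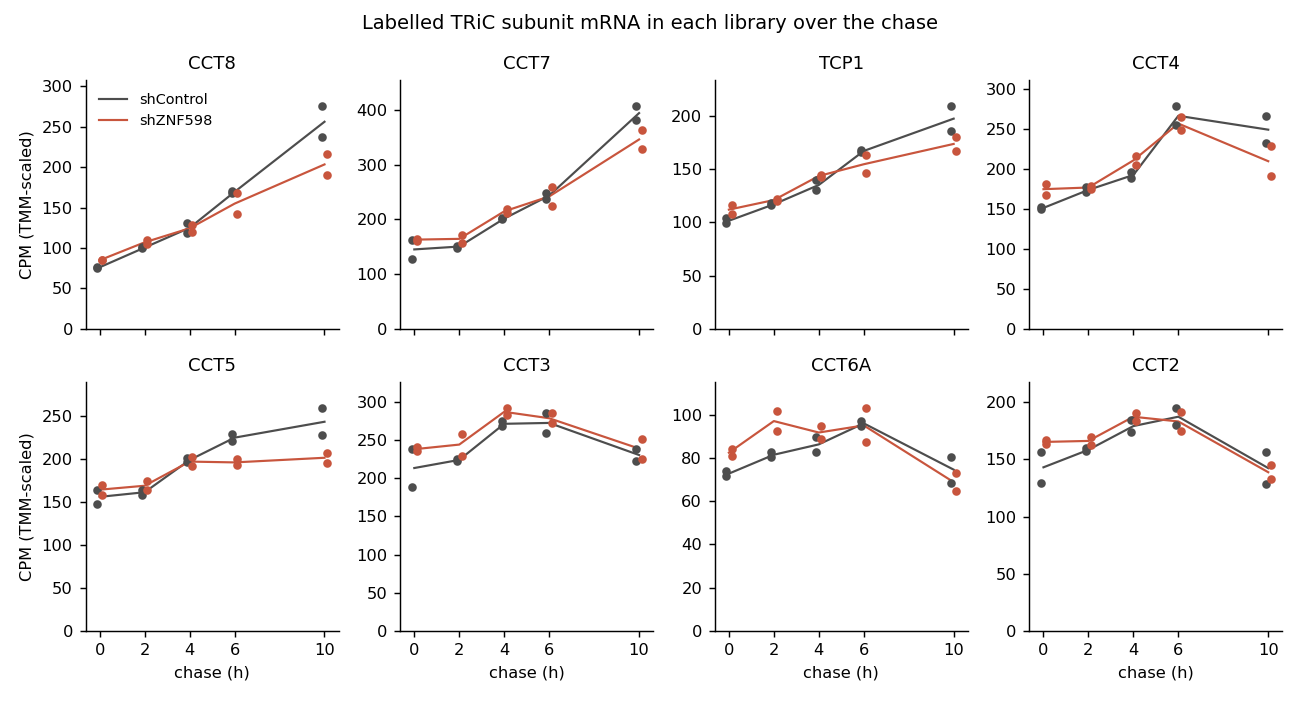
TMM-scaled CPM (vertical axis, from 0, a scale for each subunit) against hours of chase for the 8 subunits. Points are libraries, lines join the means of 2 libraries, gray is shControl and red shZNF598. CCT8, CCT7, TCP1 and CCT5 have their highest mean at 10 h, whereas CCT4, CCT3, CCT6A and CCT2 have theirs before 10 h.

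Because this course was seen in the values, the steps between 0, 6 and 10 h were tested after the data had been examined, in the fit with 1 mean per group. From 0 to 6 h all 8 subunits rose in shControl cells, by 0.35 (CCT3, SE 0.104, adjusted p = 0.00455) to 1.16 on the log2 scale (CCT8, SE 0.104, adjusted p = 9.79e-10), while 32.7% of all transcripts were called in this direction. From 6 to 10 h, CCT7 (0.70, SE 0.107), CCT8 (0.60, SE 0.102) and TCP1 (0.24, SE 0.093) rose further, with adjusted p of 1.08e-05, 4.34e-05 and 0.0363, against 26.2% of all transcripts. CCT2 (-0.40, SE 0.106, adjusted p = 0.00356) and CCT6A (-0.37, SE 0.105, adjusted p = 0.00605) fell, as did 20.9% of all transcripts. In shZNF598 cells 5 subunits (CCT8, CCT7, CCT4, TCP1 and CCT5) rose from 0 to 6 h (background 31.9%), and from 6 to 10 h CCT7 and CCT8 rose (23.3%) and CCT2, CCT4 and CCT6A fell (19.5%). 

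These steps depended on the scaling. With library totals alone in place of TMM, 5 subunits rose from 0 to 6 h in shControl cells, where 19.6% of all transcripts did. From 6 to 10 h 1 rose and 5 fell there (10.4% and 48.4% of all transcripts), and 0 rose and 5 fell in shZNF598 cells (9.74% and 46.1%). Without shControl replicate 1 of 10 h, CCT2 and CCT6A were no longer called from 6 to 10 h (adjusted p = 0.106 and 0.122), and without shControl replicate 1 of 0 h, CCT2 and CCT3 were no longer called from 0 to 6 h (adjusted p = 0.0577 and 0.132). CCT3 was also not called without shControl replicate 2 of 6 h (adjusted p = 0.0618). TCP1 lost its call from 6 to 10 h without shControl replicate 1 or 2 of 6 h or replicate 2 of 10 h (adjusted p = 0.129, 0.11 and 0.279), with no filter (0.277), with a minimum of 5 CPM (0.0549) and with 1 row per gene (0.0834). In shZNF598 cells CCT5 lost its call from 0 to 6 h without shZNF598 replicate 2 of 0 h (adjusted p = 0.147) or replicate 1 of 6 h (0.0726). From 6 to 10 h CCT8 lost its call without shZNF598 replicate 2 of 6 h (0.0598) or replicate 1 of 10 h (0.0572), and CCT4 without replicate 1 of 6 h (0.113) or replicate 2 of 10 h (0.271).

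Slopes in shZNF598 cells put the subunits in a like order. CCT8 (0.126 log2 per hour, SE 0.01, adjusted p = 1.04e-09), CCT7 (0.115, SE 0.011), TCP1 (0.066, SE 0.009), CCT4 (0.039, SE 0.017, adjusted p = 0.0424) and CCT5 (0.031, SE 0.01, adjusted p = 0.00954) were called positive, with 32.7% of all transcripts called in this direction. CCT3 had 0.004 (95% interval -0.028 to 0.035), CCT2 -0.021 (-0.056 to 0.015) and CCT6A -0.03 (-0.065 to 0.006). CCT4 was called in 13 of the 20 fits that left out 1 library, CCT5, TCP1, CCT7 and CCT8 in all 20. With a minimum of 5 CPM, 3 slopes were called positive and 2 negative in shZNF598 cells (35.8% and 43.3% of all transcripts). CCT4 (0.015, adjusted p = 0.353) and CCT5 (0.008, adjusted p = 0.398) were then not called, and CCT2 (-0.044, adjusted p = 0.0115) and CCT6A (-0.053, adjusted p = 0.00405) were called negative. Over 2-10 h, CCT4 (adjusted p = 0.396) and CCT5 (adjusted p = 0.192) were not called and CCT6A (-0.066, adjusted p = 0.00432) was negative. Of the 79513 transcripts 52461 were then called in either direction. From the means of 0 and 10 h alone, CCT2 (-0.025, adjusted p = 0.0355) and CCT6A (-0.026, adjusted p = 0.0285) were called negative beside the 5 positive slopes. Of all transcripts 42% were then called negative and 32.7% positive. 

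The sign of several slopes rested on what counts as the bulk. Under library totals alone the median slope of all transcripts moved from -0.018 to -0.088 log2 per hour in shControl and from -0.014 to -0.077 in shZNF598 cells. The called slopes of the subunits were then 3 positive and 3 negative in shControl, against 5 and 0 under TMM, and 2 positive and 4 negative in shZNF598 cells. Of all transcripts 17.3% were then called positive and 61.5% negative in shControl, and 16.8% and 59.4% in shZNF598 cells. CCT8 and CCT7 were called positive in both arms under both scalings. When the 24 h libraries were added, a straight line gave 0 called subunit slopes in either arm. Of the 79513 transcripts 22969 were then called in shControl and 20829 in shZNF598 cells, in either direction.

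**Figure D2:**
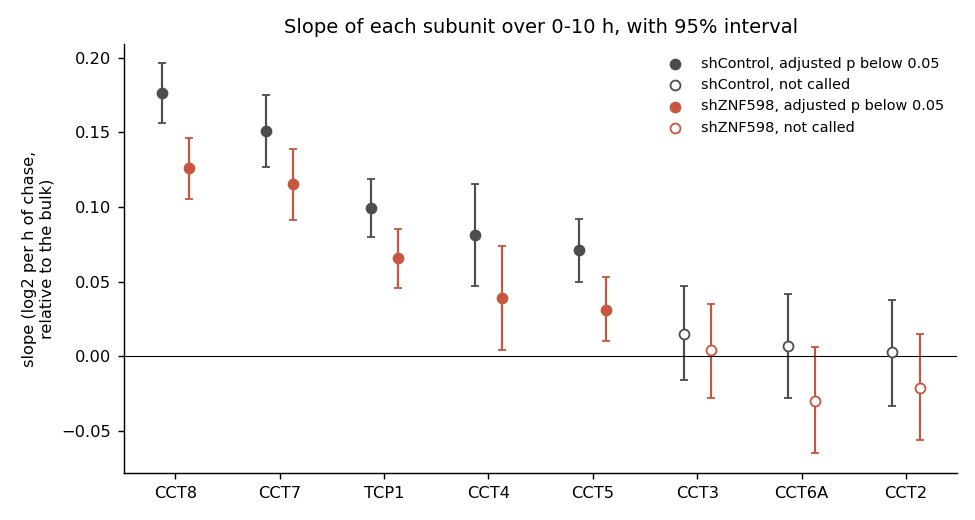
Slope over 0-10 h in log2 per hour relative to the bulk (vertical axis) for each subunit, in shControl (gray) and shZNF598 (red). Bars are 95% intervals, filled points have an adjusted p below 0.05. The slopes run from 0.176 for CCT8 to 0.003 for CCT2 in shControl, and each red point is below its gray one.

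The levels of the subunits relative to each other need no scaling between libraries, since each ratio is taken within 1 library. The log2 ratio of each of the 28 pairs was set against hours over the 10 libraries of an arm, with a two-sided permutation test of the hours (100000 resamples, smallest possible p 1e-05) and adjustment over all 56 tests. This test was chosen after the slopes had been seen, and pairs that share a subunit are not independent. In each arm 22 of the 28 ratios changed over the chase, 21 of them in both arms. Pairs of other genes were not tested, and with called slopes in most transcripts these counts are no sign of anything particular to the subunits. Leaving out 1 library gave 21 to 23 pairs in shControl and 19 to 23 in shZNF598 cells.

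Per kilobase of transcript, CCT8 was at 0.55 times the level of CCT2 at 0 h and at 1.86 times its level at 10 h in shControl cells, and at 0.53 and 1.52 times in shZNF598 cells. The log2 ratio of CCT2 to CCT8 had a slope of -0.174 per hour (SE 0.016, permutation p = 1e-05, adjusted p = 9.33e-05) in shControl and -0.147 per hour (SE 0.012, permutation p = 3e-05, adjusted p = 0.000168) in shZNF598 cells. CCT7 went from 1.05 to 2.87 times CCT2 in shControl and from 1.02 to 2.59 times in shZNF598 cells. TCP1 went from 0.578 to 1.13 times and from 0.552 to 1.02 times CCT2. No slope was called for CCT6A against CCT2, which was at 0.377 times at 0 h and 0.389 times at 10 h in shControl cells (slope of CCT2 over CCT6A -0.004 log2 per hour, SE 0.009, permutation p = 0.66, adjusted p = 0.672) and 0.37 and 0.368 times in shZNF598 cells (slope 0.008, SE 0.011, permutation p = 0.472, adjusted p = 0.498). 

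Ratios without a called slope in either arm were those of CCT2 with CCT6A, CCT3 with CCT6A, CCT4 with CCT5, TCP1 with CCT4 and CCT7 with CCT8. CCT7 over CCT8, for example, had -0.023 log2 per hour (SE 0.015, permutation p = 0.165, adjusted p = 0.184) in shControl and -0.01 (SE 0.018, permutation p = 0.576, adjusted p = 0.598) in shZNF598 cells. The ratio of CCT2 to CCT3 was called in shZNF598 (-0.025, SE 0.009, permutation p = 0.0159, adjusted p = 0.0203) and not in shControl cells (-0.014, SE 0.007, permutation p = 0.0689, adjusted p = 0.0821), and CCT3 to CCT4 in shControl (-0.064, SE 0.014, permutation p = 0.0023, adjusted p = 0.00348) and not in shZNF598 cells (-0.034, SE 0.015, permutation p = 0.0539, adjusted p = 0.0671). Whether any ratio slope differed between the arms was not tested.

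**Figure D3:**
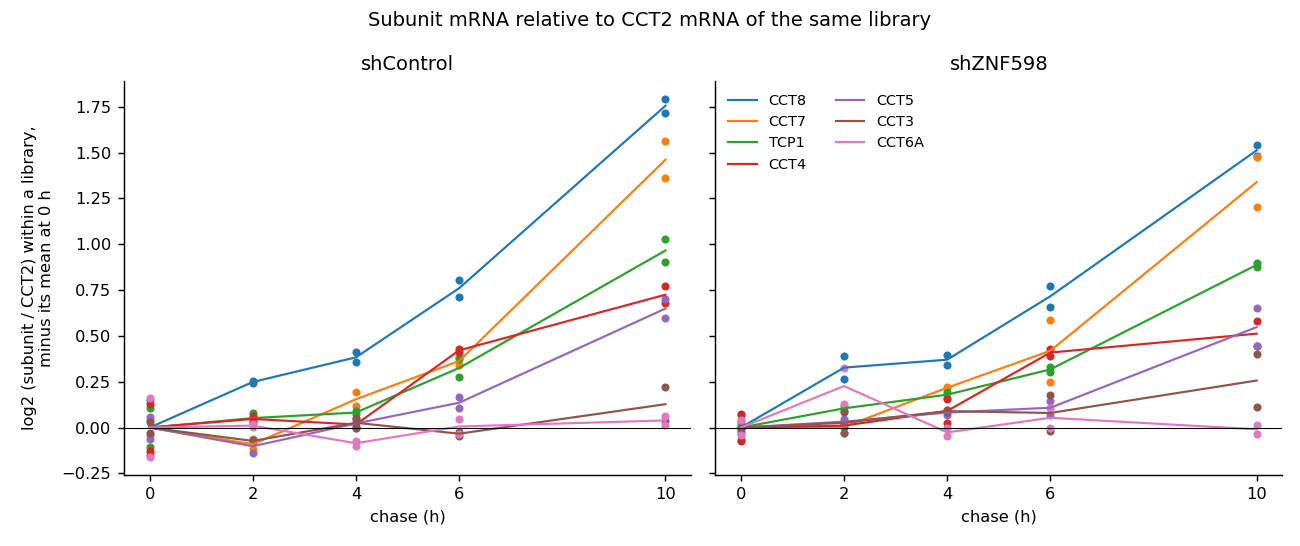
Log2 ratio of each subunit to CCT2 in the same library, minus its mean at 0 h (vertical axis), against hours of chase, in shControl (left) and shZNF598 (right). Points are libraries and lines join means. CCT8 and CCT7 separate from CCT2 by over 1 log2 unit at 10 h in both arms, and the ratio of CCT6A per kilobase is 0.377 at 0 h and 0.389 at 10 h in shControl.

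Over all 20 libraries of 0-10 h the order of the levels per kilobase was CCT3 (126 ± 13.9 CPM per kb, SD), CCT7 (122 ± 44.9), CCT4 (86.7 ± 16.8), CCT2 (86.2 ± 10.5), CCT8 (75.6 ± 30.1), TCP1 (60.5 ± 13), CCT5 (58 ± 8.76) and CCT6A (32.8 ± 4.21). The places, here and below, depend on the rows used. The row of CCT5 has 3293 nt and a mean count of 13005.8, and another protein-coding row of CCT5 has 1933 nt and 12811.55. With the shorter row the level of CCT5 per kilobase would be higher. The row of CCT2 has 1916 nt and a mean count of 11491.1, and another protein-coding row has 2189 nt and 11488.95. With the longer row the level of CCT2 per kilobase would be lower, and the ratios to CCT2 per kilobase higher. CCT7 was above CCT4, and CCT5 above CCT6A, in 20 of 20 libraries. The other neighbours changed places: CCT3 was above CCT7, CCT2 above CCT8, and CCT8 above TCP1 in 16 libraries, TCP1 above CCT5 in 14, and CCT4 above CCT2 in 8. At 0 h the order was CCT3, CCT7, CCT2, CCT4, CCT5, TCP1, CCT8, CCT6A in both arms. At 10 h CCT7 was first and CCT6A last in both arms, and CCT8 had moved from the seventh to the second place in shControl and to the third in shZNF598 cells. The highest mean level was 3.83 times the lowest at 0 h and 7.38 times at 10 h in shControl cells, and 3.77 and 7.02 times in shZNF598 cells.

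At 24 h, with 1 library per arm and no test, the spread had narrowed again. The highest level per kilobase, that of CCT3, was 4.55 times that of CCT6A in shControl and 4.23 times in shZNF598 cells. The CCT8 level was 74.04 CPM with shControl and 66.03 CPM with shZNF598, that is, 0.633 and 0.614 times CCT2 per kilobase, and CCT7 was at 1.07 and 1.01 times CCT2. Both ratios were near those of 0 h, whereas TCP1 kept 1.06 and 0.973 times CCT2. With all 22 libraries scaled together, 7 of 8 subunits in shControl and 8 of 8 in shZNF598 cells were below both 10 h libraries of the arm, at 0.297 to 0.974 and 0.327 to 0.931 times their 10 h mean. The share of all transcripts that did so was not counted, so these counts are no sign of anything particular to the subunits.

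The subunits did not vary as one block. Across the 20 libraries, which share their chase times, the log2 CPM of TCP1 and CCT8 had a Pearson r of 0.986, CCT7 and CCT8 0.944, and CCT2 and CCT6A 0.853, while CCT6A and CCT7 had -0.276. Against the mean of the other 7, r was 0.952 for TCP1, 0.936 for CCT5, 0.915 for CCT4, 0.866 for CCT8, 0.789 for CCT7, 0.483 for CCT3, 0.175 for CCT2 and 0.096 for CCT6A. Of 13436 other genes, those whose profile was most like the mean of the 8 were ACP1, a phosphotyrosine phosphatase (r 0.986), SCCPDH, a dehydrogenase-like protein (0.985), GNPAT, an enzyme of ether lipid synthesis (0.974), SET, an inhibitor of protein phosphatase 2A (0.974), and ALDH9A1, an aldehyde dehydrogenase (0.973). Their slopes were 0.081 to 0.13 log2 per hour in shControl and 0.052 to 0.088 in shZNF598 cells.

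The study asked whether loss of ZNF598 changes mRNA decay. The difference in slope between the arms was negative for all 8 subunits, that is, each had a lower slope relative to the bulk in shZNF598 cells, but none was called at an adjusted p below 0.05 (edgeR, background 0.116% of transcripts in either direction). The differences were -0.05 log2 per hour for CCT8 (SE 0.014, 95% interval -0.079 to -0.021, adjusted p = 0.274), -0.042 for CCT4 (SE 0.024), -0.039 for CCT5 (SE 0.015), -0.036 for CCT7 (SE 0.016), -0.036 for CCT6A (SE 0.024), -0.034 for TCP1 (SE 0.013), -0.023 for CCT2 (SE 0.024) and -0.012 for CCT3 (SE 0.022). The median was -0.036, beside 0.001 for all transcripts, of which 48.8% had a negative sign. At an unadjusted p below 0.05 there were 4, CCT8, CCT5, TCP1 and CCT7, beside 3.72% of all transcripts with a negative difference. Since the 8 rows share their libraries, they are not 8 independent observations of the hairpin. The genes most like the mean profile of the 8 also each had a lower slope in shZNF598 cells. In shControl and shZNF598 cells ACP1 had 0.1 and 0.052 log2 per hour, SCCPDH 0.13 and 0.088, and GNPAT 0.114 and 0.072. SET had 0.081 and 0.054, and ALDH9A1 0.088 and 0.055. These genes were picked by likeness over both arms, so they are no independent comparison. Whether the lower slope is particular to the subunits was not tested.

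DESeq2's Wald test called 1 of the 8, CCT8 (-0.053, SE 0.013, adjusted p = 0.0106), while it called 0.653% of all transcripts. In the 20 fits without 1 library the adjusted p of CCT8 was between 0.122 and 1, and its difference between -0.061 and -0.04. The sign of all 8 was negative in each of the 13 other settings in which slopes were compared, and in the left-out fits CCT3 alone turned positive (0.002 when shControl replicate 1 of 0 h was left out, 0.003 when it was shZNF598 replicate 1 of 10 h). The 8 genes have 104 rows in the files, all passed the minimum level, and 104 of 104 slope differences were negative with 0 called. Isoforms of a gene share reads, so these rows repeat the 8.

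At 0 h the log2 differences between shZNF598 and shControl cells had a positive sign for all 8 subunits, from 0.08 (CCT5, SE 0.093) to 0.21 (CCT2, SE 0.106, edgeR adjusted p = 0.515), with 0 called and 1, CCT4 (0.21, SE 0.1), at an unadjusted p below 0.05 (5.28% of all transcripts in this direction). Of all transcripts 0.407% were called and 54.7% had a positive sign at 0 h. For CCT3, CCT5, CCT7 and CCT2 these differences rested on single libraries: without shControl replicate 1 of 0 h they were -0.002 for CCT3, 0 for CCT5 and CCT7 and 0.077 for CCT2, and without shControl replicate 2 of 0 h they were 0.336, 0.154, 0.356 and 0.352. Without shZNF598 replicate 1 of 0 h that of CCT5 was 0.024. The others stayed positive in the 20 fits without 1 library: CCT8 at 0.145 to 0.169, CCT6A at 0.153 to 0.207, CCT4 at 0.149 to 0.264 and TCP1 at 0.086 to 0.195. The 2 shZNF598 libraries lay above both shControl libraries for 5 subunits at 0 h (21.8% of all transcripts did so), 6 at 2 h (26.3%) and 4 at 4 h (23.7%), and below them for 3 at 6 h (19.5%) and 5 at 10 h (21.3%). At 10 h the differences were negative for 7 of 8, from -0.04 (CCT2, SE 0.106) to -0.33 (CCT8, SE 0.102, edgeR adjusted p = 0.0752), and 0.05 for CCT3 (SE 0.104). Without shControl replicate 2 of 10 h those of CCT2 and CCT6A turned to 0.114 and 0.007, and without shZNF598 replicate 2 of 10 h those of CCT2 and CCT3 turned to 0.026 and -0.03. The difference of CCT8 was -0.436 to -0.222 over the fits without 1 library. No subunit was called at 10 h, where 3.23% of all transcripts were, and 3 (CCT8, CCT5 and CCT4) had an unadjusted p below 0.05 (9.37% of all transcripts with a negative difference). DESeq2's test called CCT8 and CCT5 there (adjusted p = 0.0249 and 0.0359) and 4.32% of all transcripts, and CCT8 was called by edgeR in 4 of the 20 fits that left out 1 library.

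Averaged over 0-10 h, the log2 differences were -0.07 (CCT5, SE 0.042) to 0.09 (CCT3, SE 0.047, edgeR adjusted p = 0.176) with a median of 0.025, beside 0.02 for all transcripts. None of the 8 was called, whereas 22.4% of all transcripts were, and 0 of the 8 had an unadjusted p below 0.05. The 95% intervals of the averaged difference lay within -0.155 and 0.185 for all 8. CCT3 was called (0.125, SE 0.042, adjusted p = 0.0304) when shControl replicate 2 of 0 h was left out, the library that was above its replicate for CCT3, CCT2 and CCT7.

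**Figure D4:**
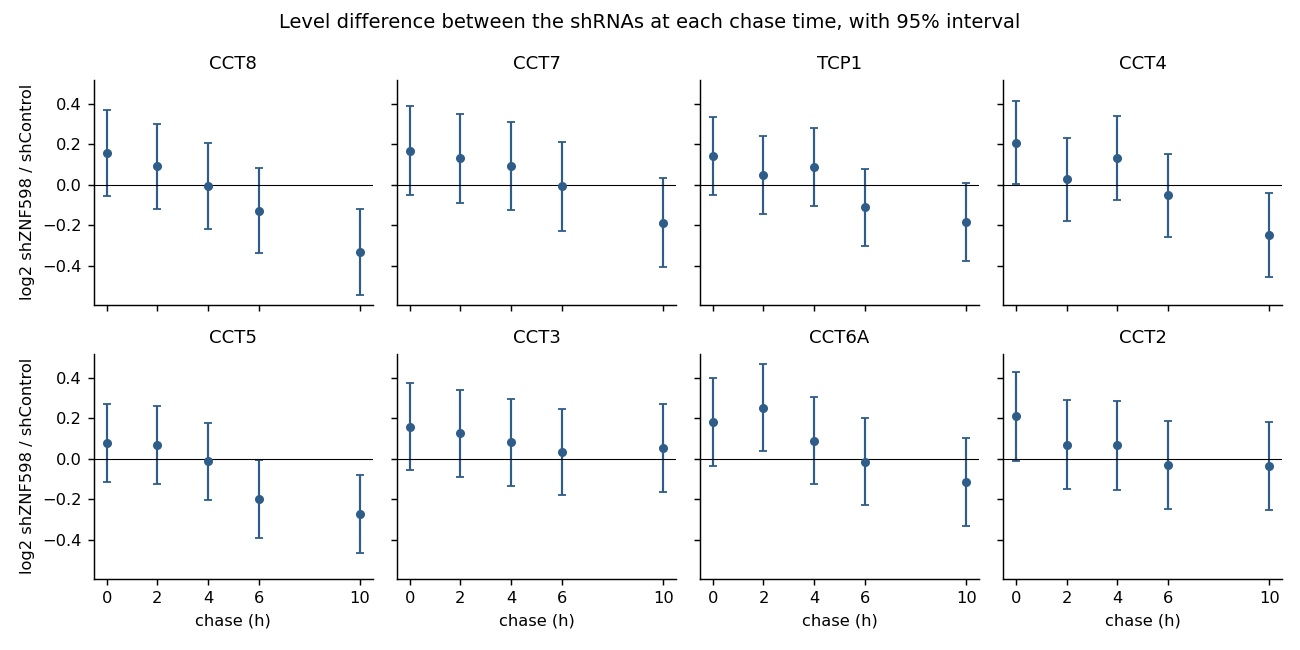
Log2 difference in level between shZNF598 and shControl (vertical axis) at each chase time, per subunit, from the fit with 1 mean per group. Bars are 95% intervals. All 8 points at 0 h are above 0, and at 10 h those of CCT8, CCT5 and CCT4 have intervals below 0.

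Several sequence features of the subunits were set beside these slopes. The share of G or C at the last position of codons was 31.8% in CCT8 (the 3.68th percentile of the 10731 genes), 33.3% in CCT2 (5.59th), 34% in TCP1 (7th), 38.4% in CCT4 (15.7th), 42.2% in CCT6A (23.7th), 50.5% in CCT5 (39.7th), 56.7% in CCT3 (49.6th) and 57.8% in CCT7 (51.5th). CCT8 and CCT2 thus lie close in this measure and far apart in slope, and so do CCT7 and CCT3 at the other end. Across the 10731 genes, which are not independent replicates, the difference in slope between the arms rose with this share (Spearman rho 0.319), and over the 8 subunits rho was 0.31. The annotated length of the 3′UTR, that of CCT5 being the longest of the 8 and uncertain, had a rho of -0.288 with the slope in shControl cells across genes and -0.476 over the 8. The features did not follow one pattern: coding length had a rho of 0.029 with this slope across genes and 0.714 over the 8, and the percent of U had -0.188 and 0.214. With the difference in slope, 3′UTR length had a rho of 0.07 across genes and -0.214 over the 8, and transcript length 0.181 and -0.19. Uridine is the base that BrU replaces, and the difference in slope had a rho of -0.311 with the percent of U across genes and -0.357 over the 8. The part of base composition in the differences was not tested.

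Reads of the subunits can be shared with other loci. There are 14 pseudogenes of the 8 genes with 16 rows in the files, of which 10 rows passed the minimum level. CCT8P1 had a mean count of 1207.6, beside 9250.85 for CCT8, and slopes of 0.165 and 0.118 log2 per hour in shControl and shZNF598 cells. TCP1P3 had 0.086 and 0.061, beside 0.099 and 0.066 for TCP1. How alike these copies and the mRNAs are was not measured, so the split of reads between them is uncertain. On the opposite strand TCP1 overlaps ACAT2, an enzyme of cholesterol metabolism, over 454 nt (19.3% of the transcript), and the ACAT2 row had slopes of 0.084 and 0.039. CCT5 overlaps a long noncoding RNA, ENSG00000271980, over 52.7% of its length, and the best row of that gene had a mean count of 1.6, beside 13005.8 for CCT5. The opposite-strand RNAs over CCT4 and CCT8 had mean counts of 0.45 to 0.65. Isoforms of a subunit share reads, so likeness of their slopes, also between row types, is no independent support. In shControl cells the slopes were 0.161 to 0.194 log2 per hour for the 12 rows of CCT8 and -0.023 to 0.027 for the 14 rows of CCT2. The 18 rows of TCP1 (0.056 to 0.115) and the 15 rows of CCT5 (0.046 to 0.094) overlapped. Rows annotated as retained introns had a median slope of 0.042 and protein-coding rows one of 0.082, beside 0.012 and -0.034 for all rows of these types. The genes hold unlike numbers of such rows, so the medians of the subunits do not compare the types within a gene. Within CCT8, for example, retained-intron rows had 0.162 to 0.19 and protein-coding rows 0.17 to 0.178 in shControl cells.

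Genes that work with TRiC were taken from lists of partners and clients. Of 12 genes for prefoldin, which hands unfolded actin and tubulin to TRiC, and its relatives, all 12 passed. Averaged over 0-10 h, 2 rose in shZNF598 cells (background 12.3%) and 1 fell (10.1%): PDRG1, a prefoldin-like protein (0.46, SE 0.079, edgeR adjusted p = 0.000154), PFDN5, a prefoldin subunit (0.30, SE 0.061, adjusted p = 0.00101), and PFDN1, another (-0.41, SE 0.052, adjusted p = 4.04e-06). The median difference in slope of the 12 was -0.025 log2 per hour with 0 called. Of 6 tubulin folding cofactors, TBCB, which binds alpha-tubulin, fell in the averaged level (-0.39, SE 0.058, adjusted p = 3.28e-05, background 10.1%) and none rose (12.3%). Of these cofactors 0 had a called difference in slope, with a median of -0.022.

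Of 19 proteins known to fold on TRiC, 5 rose (background 12.3%) and 1 fell (10.1%) in the averaged level. TUBB4B, a beta-tubulin, rose by 0.38 (SE 0.052, adjusted p = 9.37e-06), and VHL, the substrate receptor of a ubiquitin ligase, by 0.22 (SE 0.05, adjusted p = 0.0022). The others were the tubulins TUBB (0.21, SE 0.048), TUBA1B (0.17, SE 0.052) and TUBA1A (0.15, SE 0.051), named here outside the rule for named genes. TUBA1A and TUBA1B lost their call with 1 row per gene (adjusted p = 0.073 and 0.0518), and were called in 7 and 17 of the 20 fits without 1 library. ACTG1, the gamma-actin gene, fell by 0.41 (-0.41, SE 0.051, adjusted p = 3.33e-06). It was the only client called at 0 h (-0.52, SE 0.115, adjusted p = 0.0378), where 0.407% of all transcripts were called in either direction. That call was lost in 9 of the 20 fits without 1 library. The call of ACTG1 at 0 h was also lost with 1 row per gene (edgeR adjusted p = 0.0551) and with the 0 h libraries alone (0.588). The values of single tubulin and actin genes are uncertain, since their copies resemble each other closely. The 19 clients had 0 called differences in slope and a median of 0.021, opposite in sign to that of the subunits.

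Of 6 other chaperonins and related genes 4 passed, and none was called in level or in difference of slope. HSPD1, the chaperonin of mitochondria, had a difference of -0.032 log2 per hour (SE 0.014, adjusted p = 0.82), with slopes of 0.108 in shControl and 0.076 in shZNF598 cells. CCT6B, the testis form of the zeta subunit, had a mean of 0.0425 CPM and did not pass, so that CCT6A was the zeta subunit that could be followed in these cells.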

How the data were processed

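BRIC-Seq libraries (TruSeq Stranded Total RNA, single-end) were processed by the authors with fastp, STAR 2.7.0a on hg38 and featureCounts with GENCODE annotation, with uniquely aligned reads and a read counted for every isoform it overlaps. The deposited files hold raw counts per transcript and a second number, taken as the transcript length in codons (triplets of bases). It equalled the GENCODE length in that unit, rounded, in all 209601 rows matched by version. The strand setting is not given in the sources used here, and the spike-in RNAs were not used here. Of 227264 rows 98.353% matched GENCODE release 44, and unmatched rows held 2.221% of counts.

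The fits took in transcripts whose mean CPM across the 20 libraries of 0-10 h reached 1, and were made with edgeR 4.0.16 (quasi-likelihood F-test, TMM, R 4.3.3), once with 1 mean per group and once with a straight line per hairpin, with Benjamini-Hochberg adjustment. The SE was taken from the log2 change and F. The fits were tested on simulated data. The 24 h libraries entered no test in the main fits. Alternatives were other scalings and filters, DESeq2 1.42.0, a replicate block, 1 row per gene, the longest transcript, other time windows and leaving out each library.

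The members and the gene lists were chosen with earlier results of these data known. Named were the 8 subunits, ZNF598, at most 2 list genes per direction and comparison among those called, for a list with none called the gene with the lowest p in the slope difference, and the 5 genes most like the members' mean profile. CPM of 24 h libraries were scaled with all 22 libraries. Counting error alone is small at these counts, and the spread between libraries sets the precision.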

Additional observations from a re-analysis of the deposited data

How the results depend on the processing

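The steps between 0, 6 and 10 h, the level at 10 h and the ratios between subunits were chosen after seeing the data. Counts of called subunits moved by over 1.5 times in the following settings. DESeq2's test called 1 subunit in the slope difference (519 of 79513 transcripts in either direction) and 2 in the level at 10 h (3433). Over 0-6 h the shControl slope was called positive for 8 subunits (25680 transcripts). Over 0-24 h it was called for 0 in either arm (22969 transcripts in shControl and 20829 in shZNF598 cells, in either direction). With no filter on low counts 3 slopes were called positive in shZNF598 cells (32109 of 183249 transcripts), and 8 subunits rose from 0 to 6 h there (32915). From 0 to 6 h in shControl 5 rose with library totals alone (15589 of 79513) and 5 with a minimum of 5 CPM (12464 of 36364), a filter that also removed ZNF598. The cause was not tested.

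Under library totals alone these slopes turned: CCT2 -0.067, CCT3 -0.055 and CCT6A -0.063 in shControl, and CCT3 -0.059, CCT4 -0.023 and CCT5 -0.032 in shZNF598 cells (log2 per hour). The step from 6 to 10 h turned to -0.165 for TCP1 and -0.292 for CCT5 in shControl and to -0.327 for CCT5 in shZNF598 cells. Over 0-24 h the slope of CCT5 turned to -0.01 in shControl and -0.026 in shZNF598 cells, where that of CCT4 turned to -0.003.

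Leaving out 1 library gave a ZNF598 change of -3.11 to -3, 0 to 0 subunits called at 0 h and in the slope difference, 0 to 1 in the averaged level and at 10 h, 5 to 5 slopes in shControl and 4 to 5 in shZNF598 cells. The steps gave 6 to 8 and 4 to 6 subunits from 0 to 6 h, and 3 to 6 and 4 to 6 from 6 to 10 h, in shControl and shZNF598 cells. The lowest, 3, was without shControl replicate 1 of 10 h. The single call at 10 h, CCT8, came without shControl replicate 1 or 2 of 0 h or shZNF598 replicate 1 or 2 of 6 h. In these fits its difference was -0.333, as with all libraries. The number of all transcripts called also moved between the left-out fits, so these ranges do not speak of the subunits alone.

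Replicate numbers did not pair the samples: over 45 pairs of groups the correlation of deviations was -0.306 to 0.429 (median 0.024), over 0.1 in 12. With the replicate block ZNF598 changed by -3.05, and 5 subunit slopes were called positive in each arm (26643 of 79513 transcripts in shControl and 25965 in shZNF598 cells). No subunit was called in the slope difference (80 transcripts in either direction) or in level (398 at 0 h, 18602 averaged, 2787 at 10 h).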
